A study of Homo sapiens with 2 samples.

Results

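Antisense RNAs are transcripts read from the DNA strand opposite to another gene. By the naming convention of human genes many of them carry the symbol of that sense partner followed by AS and a number. Some start near the partner's own start and run the other way, others lie inside or downstream of it, and some share exon bases with it on opposite strands. Most are long noncoding RNAs present at low levels, a few are known hosts of small nucleolar RNAs (snoRNAs), and only some have a known action on the partner. They were examined here in ARP1, a human multiple myeloma cell line, that is, a line of malignant plasma cells. They were chosen by name and selected on level, as all genes whose listed name ends in AS and a number and whose level was at least 1 FPKM (fragments per length of transcript, scaled to the library total) in either library. Of 181 genes with such a name, 55 met this, 82 had counts but stayed below 1 FPKM in both libraries, and 44 had 0 counts in both. Over the whole tables, 14859 of 57485 genes reached this level.

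The series holds 2 libraries, 1 per condition. Both came from ARP1 cells carrying a lentiviral hairpin (shRNA) against SRD5A1, a steroid 5α-reductase, that is switched on by doxycycline (Dox), and 1 library was labelled without and 1 with Dox. For the Dox library, the genotype field gives a hairpin against SRD5A2, whereas the title gives SRD5A1. The Dox dose and time of these libraries are not stated, and no library of Dox on cells without the hairpin was analysed, so an effect of Dox and one of the hairpin cannot be told apart. Expected counts totalled 45918570 and 48728927, in the order without and with Dox, which is kept for every pair of values. A condition with a single library has no replicate error, so no test was run and no p-value is given. A gene was counted as higher or lower when its FPKM with Dox, after 0.1 was added to both values, was more than 2-fold above or below that without Dox.

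The targeted gene SRD5A1 was itself higher in the library labelled with Dox. It was at 13.04 and 25.88 FPKM, a log2 ratio of 0.98, and at 1375 and 3014 expected counts. This goes against the label of a knockdown, and the directions below are those of the libraries as labelled. Of 10 plasma cell markers, 9 were at 1 FPKM or more, with a summed level of 2437 and 2337 FPKM, and the exception was CD27 at 0.06 and 0.18 FPKM. Of 4 T cell and 4 monocyte markers, 0 reached 1 FPKM, and 3 of 4 epithelial markers did, with sums of 8.73 and 4.18 FPKM. The part of these epithelial markers in the results was not tested.

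The start regions of 5 antisense RNAs are shown because they cover different cases. BDNF-AS1 had a ratio among the largest, and FBXL19-AS1 belonged to a pair that moved apart. In the pairs of ZBED3-AS1 and LBX2-AS1 both genes were past 2-fold higher with Dox. In that of GABPB1-AS1 only the antisense RNA was, and the partner had a log2 ratio of 0.81. The 5 windows hold 0 exon bases of the partner, and they were chosen after the values were seen. Each is 300 bases of RefSeq on GRCh38.p14, read 5′ to 3′ on the antisense RNA's strand, with the bases from the RefSeq start onward in capitals. They lie at chr11:27506602-27506901 (plus strand), chr5:77086465-77086764 (plus), chr2:74502343-74502642 (plus), chr16:30923220-30923519 (minus) and chr15:50353924-50354223 (plus).
BDNF-AS1: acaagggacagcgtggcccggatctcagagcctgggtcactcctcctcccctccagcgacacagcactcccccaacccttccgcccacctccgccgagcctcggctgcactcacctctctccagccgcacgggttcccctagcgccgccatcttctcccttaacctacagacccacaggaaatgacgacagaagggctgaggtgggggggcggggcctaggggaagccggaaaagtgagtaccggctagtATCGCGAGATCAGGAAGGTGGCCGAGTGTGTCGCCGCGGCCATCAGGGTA
ZBED3-AS1: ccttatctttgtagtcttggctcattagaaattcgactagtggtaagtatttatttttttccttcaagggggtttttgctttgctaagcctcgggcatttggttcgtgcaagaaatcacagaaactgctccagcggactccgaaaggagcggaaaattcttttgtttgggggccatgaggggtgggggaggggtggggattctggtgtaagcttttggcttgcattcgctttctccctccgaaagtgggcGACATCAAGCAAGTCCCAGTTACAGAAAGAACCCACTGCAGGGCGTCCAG
LBX2-AS1: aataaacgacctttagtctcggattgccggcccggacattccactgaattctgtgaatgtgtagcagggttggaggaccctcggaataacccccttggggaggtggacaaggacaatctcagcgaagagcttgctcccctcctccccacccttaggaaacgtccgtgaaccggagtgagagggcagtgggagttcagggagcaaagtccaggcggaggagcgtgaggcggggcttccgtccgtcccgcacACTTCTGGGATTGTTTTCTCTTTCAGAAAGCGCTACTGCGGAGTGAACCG
FBXL19-AS1: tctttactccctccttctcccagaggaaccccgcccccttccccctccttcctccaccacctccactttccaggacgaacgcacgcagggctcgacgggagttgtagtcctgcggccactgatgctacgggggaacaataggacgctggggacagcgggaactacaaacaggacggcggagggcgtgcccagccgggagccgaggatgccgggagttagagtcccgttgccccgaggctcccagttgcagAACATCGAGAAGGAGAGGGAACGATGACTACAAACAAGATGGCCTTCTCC
GABPB1-AS1: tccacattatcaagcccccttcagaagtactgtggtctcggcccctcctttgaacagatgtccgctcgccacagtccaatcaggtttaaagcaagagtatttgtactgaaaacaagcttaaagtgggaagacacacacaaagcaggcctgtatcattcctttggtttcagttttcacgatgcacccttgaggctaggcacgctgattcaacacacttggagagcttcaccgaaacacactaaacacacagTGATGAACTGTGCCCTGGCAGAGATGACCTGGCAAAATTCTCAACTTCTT
All but the first of these windows lie wholly inside the partner's gene body. The nearest annotated partner start was 198 bases from the RefSeq start of FBXL19-AS1, 391 from that of LBX2-AS1 and 468 from that of ZBED3-AS1. For GABPB1-AS1 it was 950 bases and for BDNF-AS1 152806 bases. Over all GENCODE transcripts of each pair, the same distances were 198, 389, 70, 59 and 5602 bases, in this order. The window of GABPB1-AS1 ends at 50354223, before the GENCODE gene begins at 50354959, so it lies outside the counted gene. Promoter windows were matched by name and chromosome, and not by position. That of MAFG-AS1 ends at 81922948, whereas the GENCODE gene counted under this name begins at 81927829. Windows were found for 39 of the 55 antisense RNAs, with a median of 23 CG dinucleotides. The median was 14 over all 35116 promoters of the table and 26.5 over the 44 partner promoters found. Over all 1714 promoters of genes named with AS and a number, the median was 10. The C/EBP-ATF element, searched as TGATGNAA on both strands, was in 0 of the 39 and 0 of the 44 windows. It was in 3.62% of all promoters and in 3.44% of the 1714 with an AS name. No match says only that these letters are not in these windows.

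Most of the antisense RNAs were low. Their median level was 2.51 FPKM without and 4.29 FPKM with Dox, and 47 of 55 were at 1 FPKM or more in both libraries. A further 7 reached this level only with Dox, and UCKL1-AS1 reached it only without Dox. Just inside the threshold were RAD21-AS1, UCKL1-AS1 and ARF4-AS1, with 1.02, 1.08 and 1.14 FPKM in the higher library. Just outside were FOXD2-AS1, ZNF503-AS2 and LHFPL3-AS2, with 0.98, 0.98 and 0.99 FPKM. The level plot of all members shows both the spread and the single very abundant RNA.

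**Figure D1:**
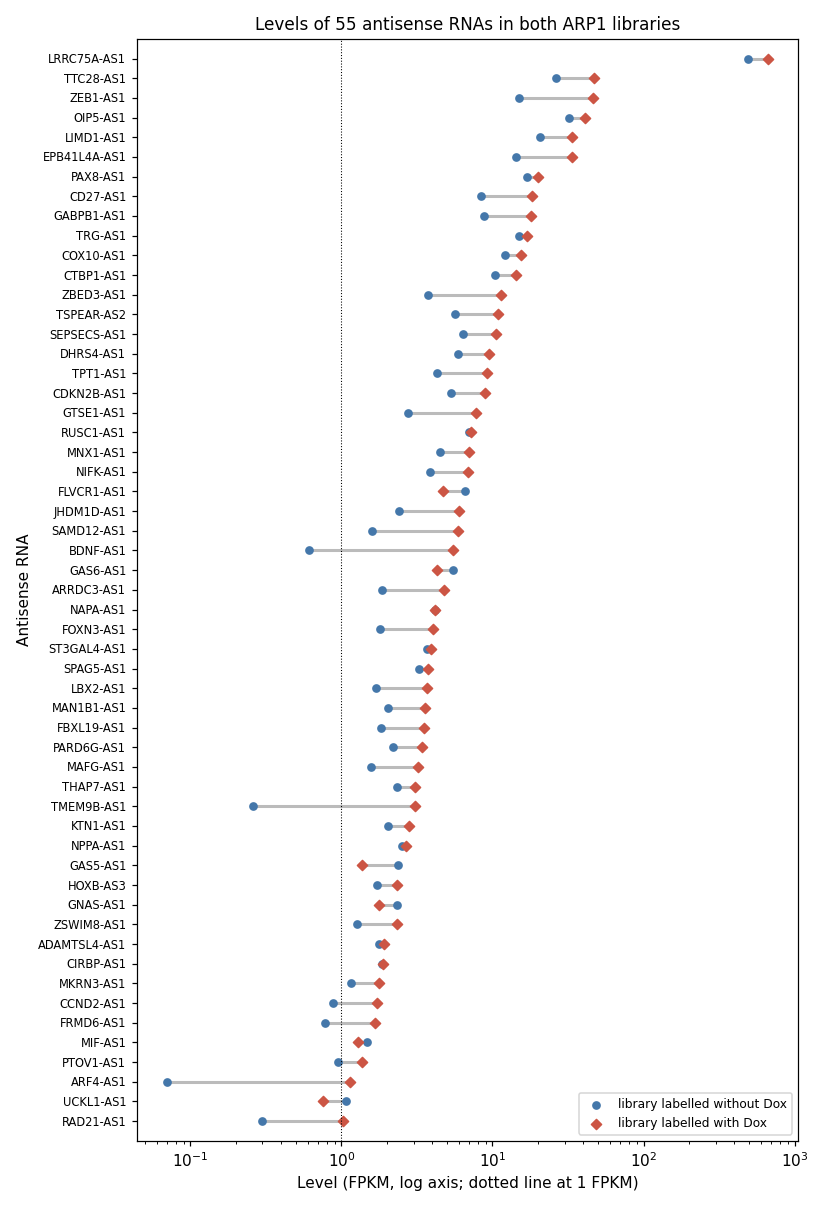
FPKM on a log axis of the 55 antisense RNAs in the library labelled without Dox (circles) and with Dox (diamonds), 1 library each, with a line joining the values of 1 RNA. LRRC75A-AS1 stands alone at 492.87 and 667.93 FPKM, and 49 of 55 diamonds lie to the right of their circles.

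LRRC75A-AS1, a snoRNA host also known as SNHG29, was at 492.87 and 667.93 FPKM, a log2 ratio of 0.44. It held 13621 of the 38348 expected counts of all members without Dox and 19807 of the 65397 with Dox. Without it the members' sum was 24727 and 45589, so the higher sum with Dox did not rest on this RNA. Its partner LRRC75A was below 1 FPKM, at 0.47 and 0.34.

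The next in level were TTC28-AS1, ZEB1-AS1 and OIP5-AS1. TTC28-AS1 was at 26.48 and 46.80 FPKM and ZEB1-AS1 at 14.98 and 46.54 FPKM. OIP5-AS1, also known as cyrano, was at 31.89 and 40.69 FPKM. Of these only ZEB1-AS1 was past 2-fold. Its partner encodes a zinc finger transcription factor known for repressing E-cadherin. LIMD1-AS1 followed at 20.58 and 33.66 FPKM, EPB41L4A-AS1, which also holds a snoRNA gene, at 14.24 and 33.45 FPKM, and PAX8-AS1 at 16.90 and 20.08 FPKM. CD27-AS1 was at 8.44 and 18.33 FPKM although CD27, a receptor of the tumour necrosis factor family, was near 0. TRG-AS1, an antisense RNA of the T cell receptor gamma locus, was at 15.07 and 16.99 FPKM, in cells where 3 of the 4 T cell markers were under 0.1 FPKM.

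The antisense RNAs as a group were higher with Dox. In all, 49 of 55 had a log2 ratio above 0 and 6 below, with a median of 0.71 and a range from -0.75 to 3.13. Past 2-fold, 17 (30.9%) were higher and 0 were lower. Over all 14859 genes compared, 8673 had a log2 ratio above 0 and 6165 below. Of them 17.0% were past 2-fold higher and 6.41% lower, with a median of 0.15. Among protein-coding genes these shares were 11.8% and 6.03%, with a median of 0.07. Fewer cells of a kind and less RNA per cell cannot be told apart in such bulk libraries.

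Other noncoding gene types were also higher with Dox at the median. Of the 868 compared genes that GENCODE release 29 types as antisense, 38.0% were past 2-fold higher and 5.88% lower, with a median log2 ratio of 0.67. Long intergenic noncoding RNAs had a median of 0.79 (644 genes). Among all genes compared with 1 to 10 FPKM in the higher library, 26.0% were higher and 7.11% lower. A log2 ratio above 0 was found in 4270 of these 6431 genes and in 647 of the 868 of the antisense type. The members' share of 30.9% thus lay above that of all genes and of genes at a like level, and below that of the antisense type as a whole. A gene below 1 FPKM without Dox could enter only by being higher with Dox. Among the 47 members at 1 FPKM or more in both libraries, 12 (25.5%) were past 2-fold higher and 0 lower, with a median of 0.62, beside 11.2% higher, 5.18% lower and a median of 0.10 over all 12965 such genes.

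Many antisense RNAs stand in the tables under older clone names and so fell outside the naming pattern. GENCODE release 29 gives such a name to 1051 of them, of which 248 were at 1 FPKM or more in at least 1 library. Of these, 117 (47.2%) were past 2-fold higher and 9 lower, with a median log2 ratio of 0.89. Among the 173 of them at 1 FPKM or more in both libraries, 62 (35.8%) were higher and 4 lower, with a median of 0.67, beside 25.5% and 0.62 for the members under that filter. The difference was not tested. Below the threshold, the 126 other named antisense RNAs summed to 1232 and 1816 expected counts.

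The calls near 2-fold depended on the scaling. With TMM factors or DESeq2 size factors in place of the library total, the median of all genes compared moved from 0.15 to -0.05 and -0.06, and the members' median from 0.71 to 0.50 and 0.49. The members above 0 then numbered 42 and 41 of 55. Then 11 of the 17 stayed past 2-fold under either, beside 13.1% and 12.9% of all genes, and the calls lost were CD27-AS1, FOXN3-AS1, FRMD6-AS1, GABPB1-AS1, LBX2-AS1 and TPT1-AS1.

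The largest ratios belonged to RNAs that were scarce without Dox. TMEM9B-AS1, BDNF-AS1 and ARF4-AS1 reached 1 FPKM only with Dox, so they could enter only by being higher with it. TMEM9B-AS1, opposite a gene for a membrane protein of endosomes and lysosomes, was at 0.26 and 3.06 FPKM, from 5 and 65 expected counts. Its log2 ratio was 3.13, and that of its counts was 3.61 with a 95% interval (exact Clopper-Pearson, counting error only) of 2.32 to 5.28. BDNF-AS1, opposite the gene of a neurotrophin, was at 0.61 and 5.50 FPKM, from 44 and 355 counts, a log2 ratio of 2.98. Its start region is the first shown above. The counts put the log2 ratio of BDNF-AS1 between 2.47 and 3.41, a narrower range than for TMEM9B-AS1. ARF4-AS1 was at 0.07 and 1.14 FPKM, but from 0.63 and 11.16 expected counts, and its count interval ran from 0.59 to 8.80.

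Some of the other members past 2-fold are listed together here because their partners are transcription regulators or chromatin genes. The share of such partners among all members was not counted. Members with partners of these kinds were also found below 2-fold, such as PAX8-AS1 (0.25), CTBP1-AS1 (0.44), MNX1-AS1 (0.62) and MAFG-AS1 (0.99). ZEB1-AS1 had a log2 ratio of 1.63 from 648 and 2420 expected counts, and ZBED3-AS1, whose partner encodes a zinc finger protein of the BED type, was at 3.74 and 11.35 FPKM, a log2 ratio of 1.58. JHDM1D-AS1 lies next to a histone demethylase gene that was renamed KDM7A, and it was at 2.39 and 6.04 FPKM, a log2 ratio of 1.30. FOXN3-AS1, opposite a forkhead repressor gene, was at 1.80 and 4.02 FPKM, a log2 ratio of 1.12. GABPB1-AS1, whose partner encodes a subunit of the GABP transcription factor, was at 8.82 and 17.93 FPKM, a log2 ratio of 1.02. In each of these the higher value was in the library with Dox, and the last lay barely past 2-fold.

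Other large ratios are listed here without a grouping by partner. SAMD12-AS1, the highest of them, was at 1.60 and 5.89 FPKM, a log2 ratio of 1.82. RAD21-AS1, opposite the gene of a cohesin subunit, was at 0.30 and 1.02 FPKM, a log2 ratio of 1.49. ARRDC3-AS1, whose partner is an arrestin-domain gene, was at 1.86 and 4.74 FPKM, a log2 ratio of 1.30. Both libraries of GTSE1-AS1 were above 2 FPKM, at 2.75 and 7.74, and its partner acts at microtubules in the cell cycle. Of the 47 antisense RNAs on the list of much studied ones, 6 were members, and 4 of these (ZEB1-AS1, ARRDC3-AS1, FOXN3-AS1 and GABPB1-AS1) were past 2-fold higher, beside 17.0% of all genes and 38.0% of the antisense type. FOXN3-AS1 and GABPB1-AS1 dropped out with TMM or DESeq2 factors. The other two were OIP5-AS1 at a log2 ratio of 0.35 and NIFK-AS1, at 3.88 and 6.88 FPKM, at 0.81.

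Only 6 antisense RNAs had a ratio below 0, and none of them passed 2-fold. GAS5-AS1 was the lowest, at 2.37 and 1.37 FPKM from 49 and 30 expected counts, a log2 ratio of -0.75 with a count interval of -1.50 to -0.11. FLVCR1-AS1, next to a gene for a heme and choline transporter, was at 6.55 and 4.71 FPKM, a log2 ratio of -0.47. UCKL1-AS1 was at 1.08 and 0.76 FPKM, and GAS6-AS1, opposite the gene of a ligand of TAM receptors, was at 5.48 and 4.29 FPKM. For these 4 the count interval lay below 0. GNAS-AS1, from the imprinted locus of the stimulatory G protein alpha subunit, was at 2.34 and 1.76 FPKM, but its expected counts were 75 and 83.35. MIF-AS1 was at 1.47 and 1.29 FPKM and, like GNAS-AS1, had a count interval that held 0.

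A few stayed close to equal. NAPA-AS1 was at 4.16 and 4.17 FPKM, RUSC1-AS1 at 7.04 and 7.22, and ST3GAL4-AS1 at 3.71 and 3.91. Their log2 ratios of 0.00, 0.04 and 0.07 had count intervals that held 0. NPPA-AS1, at 2.51 and 2.66 FPKM, is uncertain in identity, because its transcripts belong to CLCN6 in GENCODE 29 and 60.2% of its exon bases lie in another gene of the same strand. In ZSWIM8-AS1 that share was 98.0%, but this RNA was not near equal, at 1.26 and 2.34 FPKM, a log2 ratio of 0.84.

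Under scaling by the library totals, counting error alone left the direction of most members clear. The 95% interval of the count ratio lay above 0 in 41 members and below 0 in 4, and it held 0 in 10. Some of the 41 lay close to 0, as in COX10-AS1 with a lower end of 0.006. The same count was not made over all genes, nor with TMM or DESeq2 factors, under which the members' median was lower. In 5 members the FPKM ratio and the count ratio were more than 0.5 apart on the log2 scale. For GABPB1-AS1 the FPKM gave 1.02 and the counts 1.81, and for CCND2-AS1 0.90 and 1.76. In GTSE1-AS1 (1.46 and 0.63) and EPB41L4A-AS1 (1.23 and 0.55) the order was the other way, and neither was past 2-fold by counts. In these 4 the deposited effective length, by which FPKM are divided, differed between the libraries. For ARF4-AS1 (2.87 and 3.37) it was close, at 194.42 and 200.67 bases, and its values rest on 0.63 counts and on the 0.1 added to 0.07 FPKM.

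**Figure D2:**
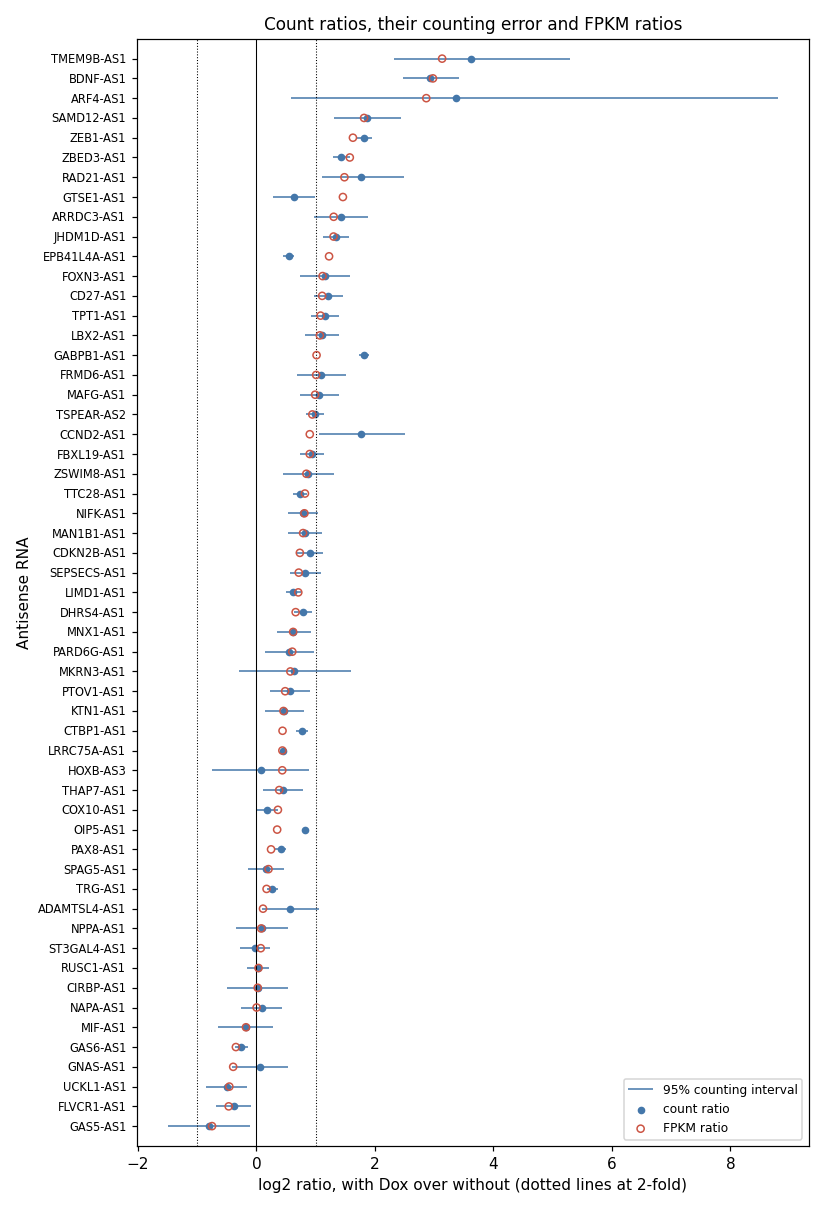
Log2 ratios, with Dox over without, of the 55 antisense RNAs: filled circles give the ratio of expected counts over library totals with its 95% counting interval, open circles the ratio of FPKM + 0.1. Intervals lie above 0 in 41 members, and GABPB1-AS1, GTSE1-AS1 and EPB41L4A-AS1 are among those with open circles outside their intervals.

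The second question was whether an antisense RNA and its sense partner moved alike. A partner was listed for 52 members, and 46 of these partners were at 1 FPKM or more in at least 1 library. TRG-AS1, HOXB-AS3 and JHDM1D-AS1 had no gene of the partner's name. In the 46 pairs the median log2 ratio was 0.68 for the antisense RNAs and 0.26 for the partners, and the median difference within a pair was 0.45. The antisense RNA had the larger ratio in 34 pairs and the smaller in 12. The difference passed 2-fold in 8 pairs with the antisense RNA higher and in 2 with the partner higher. TMEM9B-AS1, ARF4-AS1 and RAD21-AS1, among the 8, reached 1 FPKM only with Dox. Over the 39 pairs whose antisense RNA was at 1 FPKM or more in both libraries, the larger ratio was the antisense RNA's in 28 and the partner's in 11, the median difference was 0.31, and 5 and 2 pairs were past 2-fold apart. The antisense RNA was the scarcer gene of most of the 46 pairs, with a median level of 13.9% of the partner's, and was the more abundant in 8. It was also the more abundant in each of the 6 pairs left out because the partner was below 1 FPKM.

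By direction alone, both genes were above 0 in 25 pairs and both below 0 in 4. The antisense RNA was above and the partner below 0 in 15 pairs, and the reverse held in 2, GAS5-AS1 and GNAS-AS1. Of the 46 partners, 5 (10.9%) were past 2-fold higher and 0 lower, a share near the 11.8% of all protein-coding genes. Both genes of a pair were past 2-fold higher in 3, those of ZBED3-AS1, FOXN3-AS1 and LBX2-AS1, and FOXN3-AS1 and LBX2-AS1 dropped out with TMM or DESeq2 factors. By counts LBX2 was not past 2-fold, at a log2 ratio of 0.90 with an interval of 0.40 to 1.42.

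ZBED3 gave the largest partner ratio. It was at 1.83 and 21.89 FPKM, a log2 ratio of 3.51, against 1.58 for ZBED3-AS1, and its count interval was 3.40 to 3.67. FOXN3 was at 18.99 and 38.11 FPKM, just past 2-fold, beside a log2 ratio of 1.12 for its antisense RNA. LBX2, a homeobox gene, was at 3.29 and 7.80 FPKM, a log2 ratio of 1.22 beside 1.07 for LBX2-AS1 at 1.69 and 3.66 FPKM. The gene next to JHDM1D-AS1, KDM7A, was at 5.24 and 16.95 FPKM, a log2 ratio of 1.67, but under the rule it was no partner. The other two partners past 2-fold were CDKN2B and SEPSECS, at 1.07 and 1.24, whose antisense RNAs were at 0.73 and 0.71. LBX2-AS1, CDKN2B-AS1 and SEPSECS-AS1 were singled out after their values were seen.

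Pairs that moved apart were found with partners of several kinds. TMEM9B was at 18.26 and 16.38 FPKM, a log2 ratio of -0.16 against 3.13 for its antisense RNA. ARRDC3 was at 16.64 and 10.86 FPKM, a log2 ratio of -0.61 against 1.30. TTC28, a tetratricopeptide repeat gene, was at 6.62 and 4.25 FPKM, a log2 ratio of -0.63 against 0.82. In these 3 pairs the partner was lower and the antisense RNA higher in the library with Dox. FBXL19, an F-box gene, showed the same at 14.93 and 11.01 FPKM, a log2 ratio of -0.44, where FBXL19-AS1 was at 1.84 and 3.52 FPKM with a ratio of 0.90.

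In other pairs the partner had a smaller ratio without a clear opposite direction. GTSE1 was at 60.30 and 60.88 FPKM, a log2 ratio of 0.01 against 1.46 for its antisense RNA by FPKM and 0.63 by counts. ARF4, a small GTPase of the Golgi, was at 89.16 and 85.16 FPKM. ZEB1 was at 18.58 and 25.87 FPKM, a log2 ratio of 0.48 against 1.63, and RAD21 at 129.32 and 161.83 FPKM, 0.32 against 1.49. In SPAG5 and RUSC1 the partner was lower with Dox while the antisense RNA was near equal. SPAG5, a spindle protein gene, was at 80.19 and 46.83 FPKM, a log2 ratio of -0.77 where SPAG5-AS1, at 3.25 and 3.76 FPKM, had 0.20. RUSC1 was at 40.72 and 21.29 FPKM, a log2 ratio of -0.93 where its antisense RNA had 0.04. GAS6 and its antisense RNA were both lower, at -0.79 and -0.35.

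GAS5, a snoRNA host known from growth-arrested cells, and its antisense RNA lay on opposite sides of 0. GAS5 was at 419.43 and 651.41 FPKM, a log2 ratio of 0.64 by FPKM with a count interval of 0.25 to 0.33, against -0.75 for GAS5-AS1.

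A stretch of 26 bases, chr13:45341345-45341370 on GRCh38 (GENCODE 29, plus strand as in the antisense RNA), is shared by the first exon of a TPT1-AS1 transcript and TPT1, the gene of the translationally controlled tumour protein. Of the 14 TPT1 transcripts, 1 holds any of these bases. The stretch is shown because a read from here could stem from either RNA, and the strand setting of library and counting is not stated.
TPT1-AS1: gaggcggagacacaaggctccgttcc
TPT1 was at 1546.22 and 2076.46 FPKM and TPT1-AS1 at 4.29 and 9.20 FPKM, so the antisense RNA was at 0.37% of its partner's level. In GAS5-AS1 this was 0.35%. The part of partner reads in these antisense values was not tested.

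The arrangement on the chromosome was described for the 52 pairs with a listed partner. Annotated exons shared bases on opposite strands in 38 pairs, 11 were head to head (starts within 1000 bases and no shared exon base), and in 3 only the gene bodies overlapped. Over all members, 41 shared exon bases with some gene of the other strand, 4 of them over the greater part of their exon bases. With the strand setting not stated, reads of shared bases cannot be told apart, so these pairs were described separately.

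The antisense median lay above the partner median in both main arrangements. In the 32 exon-sharing pairs with a partner at 1 FPKM or more, the median log2 ratio was 0.57 for the antisense RNAs and 0.23 for the partners. In the 11 head-to-head pairs these were 0.79 and 0.28. More than 2-fold apart were 9 of the 32 exon-sharing pairs and 1 of the 14 others, which was GTSE1-AS1. Head-to-head members include FOXN3-AS1, SAMD12-AS1, GTSE1-AS1, FLVCR1-AS1 and ST3GAL4-AS1, and they share 0 exon bases with their partners.

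Across the 46 pairs, the ratios of antisense RNA and partner were weakly related, with Pearson's r = 0.22 and Spearman's rho = 0.26. The points share both libraries, so this is a description and not a test. Against the nearest other expressed protein-coding gene the same values were 0.20 and 0.22. Without the pair of ZBED3-AS1, r was 0.14, and over the 39 pairs with the antisense RNA at 1 FPKM or more in both libraries it was 0.38. It was 0.18 over the 32 exon-sharing pairs and 0.49 over the 11 head-to-head pairs. In the 202 pairs of clone-named antisense RNAs, r was 0.21 over all and 0.32 over the 46 head to head.

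**Figure D3:**
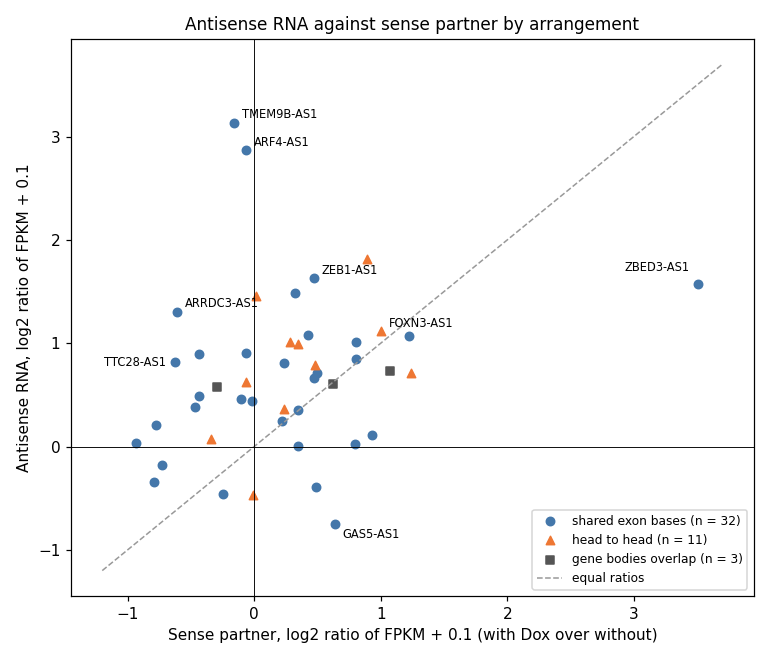
Log2 ratio of the antisense RNA against that of its sense partner in 46 pairs, by arrangement, with a dashed line of equal ratios. Points scatter widely with r = 0.22, 34 lie above the line, and ZBED3-AS1 stands apart at the right with a partner ratio of 3.51.

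No member had a partner on the list of ATF4 targets, the amino acid response genes of which 48 of 56 compared were past 2-fold higher in these libraries (17.0% of all genes), nor a zinc finger partner with a ZNF, ZKSCAN or ZSCAN name or a solute carrier partner. RNAs known to stay in the nucleus did not move as 1 group. MALAT1 was at 132.15 and 109.72 FPKM, NEAT1 at 200.93 and 518.10 FPKM, and KCNQ1OT1, itself an antisense RNA, at 0.53 and 0.71 FPKM. Their log2 ratios of -0.27, 1.37 and 0.36 bracketed the members' median of 0.71.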

How the data were processed

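RNA from 2 libraries of ARP1 cells was poly(A)-selected and sequenced from both ends. Per the file headers, the authors deposited expected counts, TPM and FPKM per gene with effective lengths. Expected counts apportion reads that match several transcripts, TPM scale the counts by effective length to a fixed sum, and FPKM divide them by effective length and library total. The submitters' processing notes list hg19, Bowtie 0.12.2, HISAT2 2.1.0 and StringTie 1.3.4d without their roles, whereas 202888 of 204675 listed transcripts carry identifiers of GENCODE 29, from which gene types and GRCh38 coordinates were taken. The tables hold no coordinates, and reads of overlapping or same-strand copies may have been split between genes. The strand setting is not given in the sources used here.

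Log2 ratios were computed as (FPKM with Dox + 0.1) over (FPKM without Dox + 0.1), which understates changes of low genes. Genes that reached 1 FPKM in either library were compared, and those past 2-fold were counted. Counts had exact binomial (Clopper-Pearson) 95% intervals, for counting error only, and the floor of detection is 3 counts. edgeR 4.0.16 and DESeq2 1.42.0 in R 4.3.3 gave scaling factors only. Python 3.11.15, pandas 2.3.3, numpy 2.4.6, scipy 1.17.1 and matplotlib 3.10.9 were used otherwise. The ratio and interval steps were tested on simulated counts and the exon overlap step on fixed examples, and the pairing was not simulated. Promoters (250 bases before to 50 after a start) came from RefSeq, GRCh38.p14. Entries were matched by listed name, GENCODE name or RefSeq synonym.

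The members, gene lists and comparisons were chosen with earlier results of these data known. Named were the 10 members with the highest FPKM, the 10 largest and 10 smallest ratios at 2 FPKM or more, the 10 pairs furthest apart at 2 FPKM or more, much studied members, and the 3 on either side of the threshold. Alternatives covered the pseudocount, the filter, TPM, TMM factors, DESeq2 size factors, the arrangement and the count of a pair, and, chosen after seeing the data, counts over the library total without length and leaving out the ZBED3 pair.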

Additional observations from a re-analysis of the deposited data

How the results depend on the processing

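Of 55 antisense RNAs, 17 were past 2-fold higher, and the count ran from 10 to 29 over the alternatives. It was 10 with a pseudocount of 1 FPKM, 11 with TMM factors, 11 with DESeq2 size factors, and 29 with no filter but at least 1 count. The calls past 2-fold lower stayed at 0 apart from 1 with a filter of 0.5 FPKM and 1 with no filter. The median log2 ratio of the antisense RNAs was 0.44 with no filter, where 137 antisense RNAs entered. Pairs more than 2-fold apart numbered 10, with 27 under no filter and 1 among the 14 pairs without shared exon bases, which are fewer pairs by construction. By counts over the library total without length, 17 were past 2-fold higher, 15 of them shared. No antisense median changed sign under these alternatives. No paired analysis was possible because each condition has 1 library, and for that reason no replicate was left out. Apart from the filters and the lone pairs, the cause of these shifts was not tested.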

Other observations

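Among the 248 antisense RNAs listed under clone names, 2 have a partner on the list of ATF4 targets, genes of the amino acid response. CEBPB-AS1, beside the gene of a transcription factor of that response, was at 0.19 and 2.74 FPKM without and with Dox, and CEBPB was at 3.62 and 19.24 FPKM. SLC7A11-AS1 was at 0.02 and 1.15 FPKM, and SLC7A11, the cystine transporter, was at 2.15 and 32.5 FPKM. Both antisense RNAs and both partners were past 2-fold higher in the library with Dox. These antisense RNAs were below 1 FPKM without Dox, so they could enter only by being higher with it. Of 10 clone-named antisense RNAs with a zinc finger partner, 3 were past 2-fold higher and 1 lower, and of 6 with a solute carrier partner 3 were higher and 0 lower. In the much studied list, 23 were clone-named, of which 12 were past 2-fold higher and 2 lower. Over all 248 clone-named antisense RNAs 47.2% were past 2-fold higher, beside 17.0% of all genes, and the subgroups were not tested against them. Among those at 1 FPKM or more in both libraries, 35.8% were higher, beside 11.2% of all such genes. These values come from 1 library per condition and have no replicate error.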
